A study of Mus musculus with 6 samples.

Results

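Of the 8480 sites at which chromatin of tumor myeloid cells was more open after MS-275 than after vehicle, 824 lay in intergenic sequence more than 50 kb from any protein-coding transcription start site (TSS) and overlapped no peak of a comparison with CXD101, which is what MS-275-only means here. They were selected from the deposited list of MS-275 over vehicle ATAC-seq peaks by position and by overlap. A member overlapped no peak of the CXD101 over vehicle list, no peak of the MS-275 over CXD101 list and no 5 kb stretch upstream of an annotated TSS. Its summit, the base with the highest signal in the peak, lay in no annotated gene. The 6 deposited lists held 11800 peaks in all. MS-275-only peaks numbered 6729, so the distant intergenic sites were 12.2% of them, beside 2128 promoter, 2460 intronic, 355 exonic and 962 intergenic peaks within 50 kb. The 824 summits fell in 714 distinct intervals, since an interval can hold several summits.

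Monocytic myeloid-derived suppressor cells (M-MDSCs), gated as CD11b+Ly-6ChiLy-6G-, came from tumors of Hepa 1-6, a mouse hepatoma line grown in the liver of wild-type C57BL/6J female mice aged 6 to 8 weeks. Mice were given vehicle, MS-275 or CXD101 into the peritoneum, the inhibitors at 5 mg/kg daily for 10 days. Each of the 3 groups had 2 libraries, and each list was called on the pooled libraries of the groups it compares. The lists carry no values of single libraries, so the spread between replicates is unknown and every statement here describes pooled groups without a replicate test. How many mice gave cells to a library was not stated in the sources used here. In bulk cells, a larger fraction of open cells and a more open site per cell cannot be told apart.

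Histone deacetylases (HDACs) remove acetyl groups from histone tails, and class I enzymes act in corepressor complexes that transcription factors bring to promoters and enhancers. MS-275 and CXD101 inhibit the class I enzymes HDAC1, HDAC2 and HDAC3, after which acetylated, more accessible chromatin is commonly seen. ATAC-seq reads out accessibility by the cuts of a transposase, which enters DNA free of nucleosomes more readily than packed DNA. Distant intergenic sites of this kind are often enhancers, short stretches that bind transcription factors and act on genes over long distances. PU.1, C/EBP, IRF, RUNX and AP-1 proteins are the factors best known at enhancers of monocytes.

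The windows around the 8 summits with the lowest p-values are printed first, in order of p-value. Each window covers 100 bp on either side of the summit, on the plus strand of mm10 and 5′ to 3′. Capitals mark matches to a fixed set of 23 consensus sequences and repeats, searched on both strands. In the Gm826 and B3gnt2 windows the capitals CTTATCT are the reverse complement of the GATA consensus AGATAAG, and in the B3gnt2 window TGAGTCA is the reverse complement of the AP-1 consensus TGACTCA. The Slc24a2 window holds a homeobox match (TAATTA) and a C/EBP match, the Atp23 window an NF-kB match and the Cdh4 window an E-box (CAGCTG) and a FOX match. The Tbl1xr1, Brinp3 and Nxt1 windows hold none. Each window is named by the nearest protein-coding gene, which need not be the gene it acts on.
Gm826 window (mm10 chr2:159591652-159591852, plus strand): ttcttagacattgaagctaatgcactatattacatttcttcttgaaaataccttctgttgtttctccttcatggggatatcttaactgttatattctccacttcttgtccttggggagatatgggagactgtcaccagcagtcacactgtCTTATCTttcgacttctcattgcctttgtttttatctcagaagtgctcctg
Slc24a2 window (mm10 chr4:87456155-87456355, plus strand): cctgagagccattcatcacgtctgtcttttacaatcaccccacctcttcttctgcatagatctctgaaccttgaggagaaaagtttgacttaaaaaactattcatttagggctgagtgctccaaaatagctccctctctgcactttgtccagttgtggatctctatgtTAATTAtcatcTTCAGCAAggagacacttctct
Tbl1xr1 window (mm10 chr3:21958816-21959016, plus strand): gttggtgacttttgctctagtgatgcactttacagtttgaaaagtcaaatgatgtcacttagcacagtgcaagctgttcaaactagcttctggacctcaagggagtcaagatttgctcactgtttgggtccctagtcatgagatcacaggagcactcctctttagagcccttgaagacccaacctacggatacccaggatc
Brinp3 window (mm10 chr1:146337315-146337515, plus strand): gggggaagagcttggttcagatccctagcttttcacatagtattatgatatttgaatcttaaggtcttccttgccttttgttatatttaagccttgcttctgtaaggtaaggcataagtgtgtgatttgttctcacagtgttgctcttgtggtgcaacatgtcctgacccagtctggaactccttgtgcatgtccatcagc
B3gnt2 window (mm10 chr11:22693299-22693499, plus strand): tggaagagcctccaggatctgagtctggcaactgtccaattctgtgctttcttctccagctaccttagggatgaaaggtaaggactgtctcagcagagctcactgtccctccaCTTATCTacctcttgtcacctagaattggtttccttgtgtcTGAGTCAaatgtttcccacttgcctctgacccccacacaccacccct
Nxt1 window (mm10 chr2:148563626-148563826, plus strand): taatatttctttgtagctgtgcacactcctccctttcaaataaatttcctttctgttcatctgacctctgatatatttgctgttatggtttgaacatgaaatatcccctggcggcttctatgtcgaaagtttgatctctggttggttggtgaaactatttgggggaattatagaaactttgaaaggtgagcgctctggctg
Atp23 window (mm10 chr10:126458866-126459066, plus strand): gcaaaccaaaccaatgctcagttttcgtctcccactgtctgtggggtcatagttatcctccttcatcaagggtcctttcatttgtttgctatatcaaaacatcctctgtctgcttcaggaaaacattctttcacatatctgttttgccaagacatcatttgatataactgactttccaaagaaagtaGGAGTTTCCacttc
Cdh4 window (mm10 chr2:178942928-178943128, plus strand): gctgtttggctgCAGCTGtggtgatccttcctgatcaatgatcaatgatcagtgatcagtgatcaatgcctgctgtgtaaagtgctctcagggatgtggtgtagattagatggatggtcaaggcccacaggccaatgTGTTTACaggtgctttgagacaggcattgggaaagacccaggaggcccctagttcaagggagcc

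A second set shows single consensus matches in capitals. The Fmo9 window is the only member with a match to the NRF1 consensus CGCATGCG, the consensus with the highest ratio of member share to territory share, a ratio that rests on this 1 window. The other 3 windows are members with a match to the PU.1 consensus GAGGAAGT or its reverse complement ACTTCCTC, shown because PU.1 is the master regulator of myeloid cells. They were chosen after the values were seen.
Fmo9 window (mm10 chr1:166818557-166818757, plus strand): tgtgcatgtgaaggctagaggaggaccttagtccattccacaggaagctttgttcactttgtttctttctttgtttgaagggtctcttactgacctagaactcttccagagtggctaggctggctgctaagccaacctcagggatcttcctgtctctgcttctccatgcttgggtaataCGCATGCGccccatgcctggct
Spry2 window (mm10 chr14:105732496-105732696, plus strand): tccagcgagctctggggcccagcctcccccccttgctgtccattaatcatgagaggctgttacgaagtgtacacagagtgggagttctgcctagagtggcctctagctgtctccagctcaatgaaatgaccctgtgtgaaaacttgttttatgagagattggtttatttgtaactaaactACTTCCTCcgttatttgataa
Slc7a14 window (mm10 chr3:31389918-31390118, plus strand): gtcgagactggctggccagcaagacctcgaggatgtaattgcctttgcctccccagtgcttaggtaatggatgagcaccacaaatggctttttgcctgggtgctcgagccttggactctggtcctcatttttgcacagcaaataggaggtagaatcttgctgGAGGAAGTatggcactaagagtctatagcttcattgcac
Rnd3 window (mm10 chr2:51089610-51089810, plus strand): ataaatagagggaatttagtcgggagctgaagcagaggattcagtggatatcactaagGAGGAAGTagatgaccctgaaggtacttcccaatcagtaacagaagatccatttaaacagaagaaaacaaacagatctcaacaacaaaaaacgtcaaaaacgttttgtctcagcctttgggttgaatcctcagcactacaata

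At the summits of the members the MS-275 signal was about 3 times the vehicle signal. The median fold enrichment, the ratio of MS-275 to vehicle pileup after scaling to one depth, was 3.10 (quartiles 2.55 and 3.75, range 1.52 to 6.14, n = 824 peaks). These values chose the members and are given as a description. The number of sequenced tags behind each ratio was recovered from the fold enrichment and p-value of the peak, and tags are on the scale of the vehicle libraries. The MS-275 libraries were 1.14 times as deep. The members had a median of 44.6 MS-275 tags at the summit, from 16.6 to 175, over a vehicle level with a median of 13 and a range from 5.84 to 88.4. The lowest vehicle level, 5.84, is the genome-wide background that the peak caller uses as its floor. Only 33 members (4.00%) were at that floor, and 484 (58.7%) had a vehicle level at least 2 times as high. In the class within 50 kb, the share at least 2 times above the floor was 65.2%. MACS2 takes the largest of a few averages around the summit as the vehicle level, which makes it an upper estimate.

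**Figure D1:**
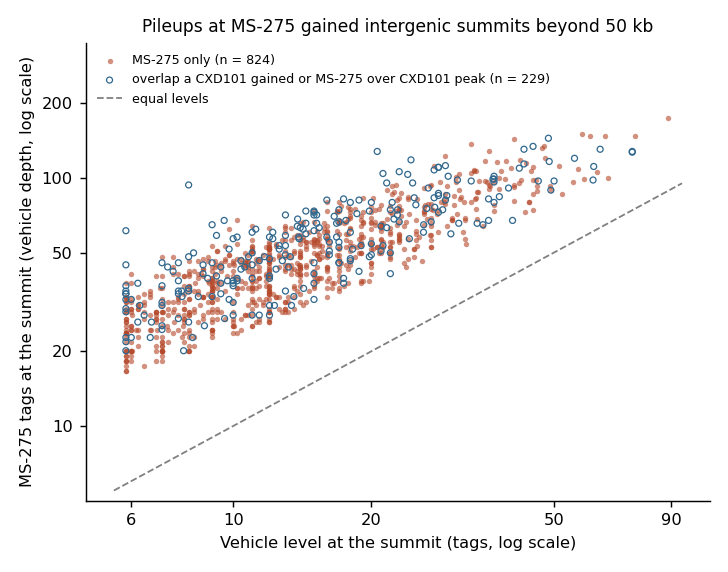
MS-275 tags (y axis, at vehicle depth) against the vehicle level (x axis, tags) at each gained intergenic summit beyond 50 kb, both on log scales; filled points are the 824 MS-275-only members and open circles the 229 peaks that overlap a CXD101 gained peak or a peak of MS-275 over CXD101. All points lie above the dashed line of equal levels, as the peak calls require, and the open circles reach vehicle levels from 5.84 to 74 where the members reach 5.84 to 88.4.

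The member with the lowest p-value lay 722 kb downstream of the TSS of Gm826 on chr2, in an interval at chr2:159591654-159591862. Its MS-275 pileup was 137 tags where vehicle had 33, which gave 4.07-fold enrichment at a −log10 p-value of 41.5. The next was upstream of Slc24a2, which encodes a potassium-dependent sodium and calcium exchanger, with 122 tags over 29. A summit upstream of Tbl1xr1 followed, with 143 tags over 41. The highest fold enrichment among the 12 members with the lowest p-values was 6.10, at 67.3 tags over 10.2, upstream of the nuclear export factor gene Nxt1. The 12 ranged from 3.44 to 6.10 in fold enrichment, from 62.1 to 143 in MS-275 tags and from 9.8 to 41 in vehicle level. They lay 58.6 to 722 kb from a protein-coding TSS, 9 of them upstream of it, as were 497 of all 824 members (60.3%). Besides those named, their nearest genes were Brinp3, B3gnt2, Atp23, Cdh4, S1pr3, Prex2, B3galt2 and Spink13. S1pr3 encodes a receptor for sphingosine 1-phosphate, and Prex2 a Rac exchange factor. Of the 12 windows, 7 held no consensus match. A low p-value needs many tags as well as a high ratio, so the order by fold enrichment differs in part. The highest fold enrichment of all members was 6.14, at 48.1 tags over 7, at a peak nearest to the zinc finger gene Zfp120. The most MS-275 tags, 175, were at a peak 523 kb from Tyrp1, where the vehicle level was 88.4 and the fold enrichment 1.97.

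Most members were narrow. Their median width was 246.5 bp, between 200 and 1485 bp, and 260 (31.6%) were at most 220 bp wide. The 229 MS-275 gained peaks beyond 50 kb that the CXD101 criteria left out were of both kinds. Of these, 55 overlapped a CXD101 gained peak only, 152 a peak of MS-275 over CXD101 only and 22 both. Together these left-out peaks had a median width of 538 bp, with a fold enrichment of 3.43 and 54.2 tags over 14.4. An overlap of 1 base was enough to leave a peak out, which a wide peak meets more easily. The difference in width from the members is thus in part set by the rule. The within 50 kb class was close to the members in width (243.5 bp) and fold enrichment (3.01), with 49.0 tags over 14.6. The widest member interval held 5 summits nearest to Cysltr2, a receptor for cysteinyl leukotrienes, with fold enrichments from 1.97 to 4.48 and 38.5 to 49.8 tags. In all, 210 members (25.5%) shared their interval with another summit, and such neighbouring summits are not independent sites.

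The distance limit cut through a continuous range. The members just inside it were 50.1 kb from Gatm, 50.3 kb from Tfap2a and 50.4 kb from Zfp804a, with fold enrichments of 2.46, 2.75 and 3.78. Just outside were a pair of summits 49.98 and 49.7 kb from Iqgap2 and 1 summit 49.4 kb from Slc16a10, with fold enrichments of 2.57, 2.69 and 3.30. The members closest to the significance limit of the list were nearest to Akap6, Bcas1 and Vmn1r2, with −log10 q-values of 1.31, 1.31 and 1.38. Their fold enrichments were 2.197, 1.66 and 1.80.

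Members became sparser with distance from protein-coding genes. The median distance was 109 kb, and the farthest member lay 1305 kb from the TSS of Reep3, with 63.0 tags over 12. The 4 next farthest, between 1011 and 1085 kb, were 1 each nearest to Sel1l and Cntnap5a and 2 summits of a single interval nearest to Galc. To allow for how much sequence lies at each distance, members were divided by the length of territory, the intergenic sequence outside genes, upstream windows and assembly gaps on chromosomes 1 to 19 and X. The territory beyond 50 kb measured 843 Mb, or 70.3% of all intergenic sequence, and held 46.1% of the MS-275-only intergenic peaks. There were 222 members per 100 Mb between 50 and 100 kb, 148 between 100 and 200 kb, 52.9 between 200 and 500 kb and 15.6 beyond 500 kb, where 35 members lay. Within 50 kb the MS-275-only gained class had 271 per 100 Mb. Sites lost with MS-275, which are peaks of vehicle over MS-275, fell over the same bins from 35.2 per 100 Mb within 50 kb to 12.7, 8.47, 4.16 and 0. The lost list had only 48 peaks beyond 50 kb, so its 0 beyond 500 kb rests on few peaks. Of the lost intergenic peaks, 27.7% (95% Wilson interval 21.6 to 34.8, counting error only) lay beyond 50 kb, against 46.1% (43.8 to 48.5) of the MS-275-only gained ones. The CXD101 gained list was on the other side, with 67 of 103 intergenic peaks (65.0%, 55.5 to 73.6) beyond 50 kb.

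**Figure D2:**
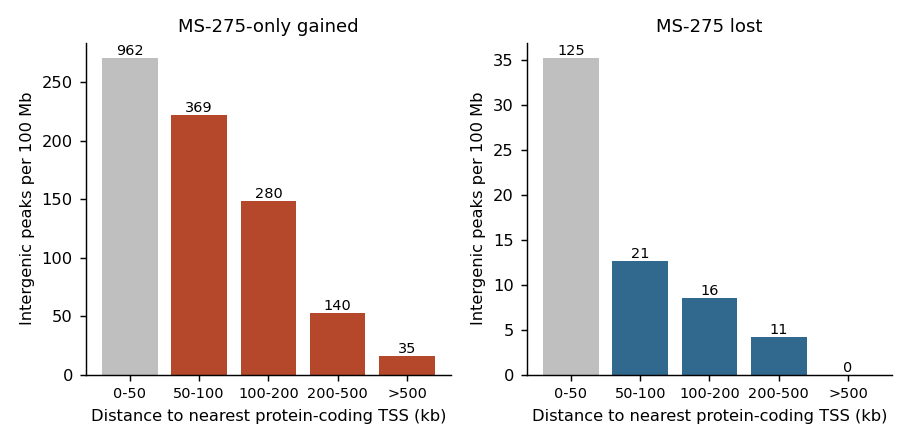
Intergenic peaks per 100 Mb of intergenic sequence (y axis) by distance to the nearest protein-coding TSS (x axis, kb), for MS-275-only gained peaks on the left and MS-275 lost peaks on the right, with separate y scales and the number of peaks above each bar. Gained peaks fall from 271 to 15.6 per 100 Mb and lost peaks from 35.2 to 0; the grey bars are the peaks within 50 kb, which are not members.

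Members lay in local groups. Another member in a different interval was within 100 kb of 500 members (60.7%), although there was on average 1 member per 1.02 Mb of territory. Of the 229 left-out peaks beyond 50 kb, 43.2% had another such peak within 100 kb, and for the lost peaks 4 of 48 (8.33%). Those lists are shorter, so a neighbour is less likely in them. With members joined where neighbours were within 100 kb, there were 427 groups, of which 231 were single summits and 25 held 5 or more.

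The group with the most members lay upstream of Tbl1xr1 on chr3:21910894-21995989. Tbl1xr1 encodes a subunit of the NCoR and SMRT corepressor complexes, which contain HDAC3, an enzyme that MS-275 inhibits. The group had 19 members in 14 intervals over 85.1 kb, starting 80.8 kb from the TSS. Its fold enrichments ran from 1.70 to 4.68, its MS-275 tags from 41.1 to 148 and its vehicle levels from 9.12 to 75. At the upper end the vehicle level was thus already far above the background of 5.84, and at the lower end close to it. Counting a distant further summit, 20 members had Tbl1xr1 as nearest gene, and the gene also had a gained promoter peak.

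The next group held 11 members downstream of Cdh26, a cadherin gene, on chr2 with 25.4 to 85.7 tags over 7.76 to 23.6. Its fold enrichments of 2.08 to 4.47 belonged to 9 intervals, and all but 1 of its members lay within 23.1 kb of its first summit, with the last at 78.1 kb. A further group on chr2 lay between Zfp217, a zinc finger regulator of transcription, and Bcas1. It had 10 members with 20.1 to 92.7 tags over 6.80 to 32.2 and fold enrichments from 1.66 to 3.503. On chr8, 9 members in as many intervals lay upstream of Irf2bp2, a corepressor that binds IRF2, with 25.4 to 98.8 tags over 7.80 to 39.0. The same gene was nearest to 21 of the 229 left-out peaks, more than its 9 members. The fifth group, with Fut8 and Max as nearest genes, had 8 members with 28.0 to 72.6 tags over 6.6 to 20. Fut8 adds core fucose to glycoproteins, and Max is the partner of MYC.

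**Figure D3:**
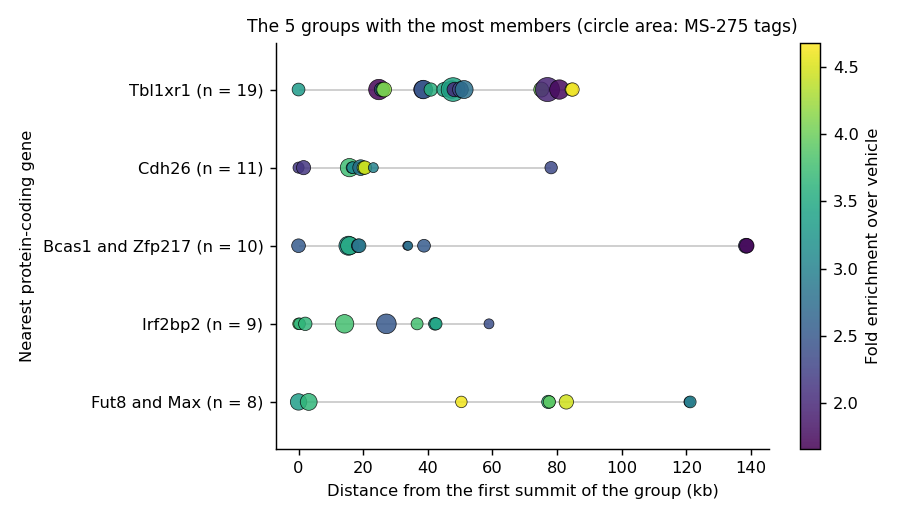
The 5 groups with the most members: each circle is 1 summit at its distance from the first summit of the group (x axis, kb), with area proportional to MS-275 tags and colour giving fold enrichment over vehicle; rows are named by nearest protein-coding gene. The 19 Tbl1xr1 members spread over 85.1 kb, while 10 of the 11 Cdh26 members lie within 23.1 kb.

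The 824 members had 422 protein-coding genes as nearest gene, 8.29% of the 5090 genes to which any territory beyond 50 kb belonged. Of these, 220 had a single member and 23 had 5 or more, which together took 157 members. The 20 genes with the most members took 142, with ties at 5 members broken by the lowest p-value, which left out Mn1, Maf and Lipg. This order does not allow for the territory of each gene. It was 1.85 Mb for Tbl1xr1 (10.8 members per Mb) and 0.0508 Mb for Cers6 (98.4 members per Mb). Among the regulators of chromatin and transcription in this set were Tbl1xr1 (20 members), Irf2bp2 (9), Zfp217 (8), Zic4 (5), Zfp608 (5) and Rybp (7), a subunit of variant Polycomb complexes. Rybp had members with 28.9 to 93.6 tags and fold enrichments of 2.05 to 3.38. Genes of signalling and protein turnover were Spry2 (6), an inhibitor of receptor tyrosine kinase signalling, Cysltr2 (5), Kctd12 (7), an accessory subunit of GABA-B receptors, and Crbn (6), the substrate receptor of a cullin ubiquitin ligase. Spry2 members reached a fold enrichment of 5.01 and Crbn members 4.88. Adhesion genes were Cdh26 (12) and Adgrl2 (8), a latrophilin. The others were Smim15, Fut8, 1700021F07Rik and Hnrnpa3 with 6 each, and Slc24a2, Pgrmc2, Rassf10 and Cers6 with 5 each. Slc24a2 had the member with the most extreme p-value of this set and fold enrichments from 3.598 to 6.01, while those of Hnrnpa3 ran from 1.88 to 3.42. All members of 10 of the 20 genes lay upstream of the TSS and all members of 5 lay downstream. Over all 824 members, 497 (60.3%) were upstream. Summits lie in no gene, so the rule takes out the gene body on the downstream side. The share of territory bases upstream is not given here.

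Of the 20 genes, 8 also had an MS-275 gained peak at a promoter. Over all members, 183 (22.2%, 95% Wilson interval 19.5 to 25.2) had a nearest gene with a gained promoter peak, while 11.6% of the bases of the territory did. The share was 22.2% for the intergenic class within 50 kb and 20.5% for the 229 left-out peaks. Counted by gene, 75 of the 422 nearest genes (17.8%) had a gained promoter peak, against 489 of the 5090 genes with territory (9.61%). The members of a gene share its promoter, and Tbl1xr1 alone gave 20 of the 183. The Wilson interval treats members as independent and so understates the uncertainty. The territory share covers all distances beyond 50 kb, while members were denser near genes. The promoter peaks come from the same libraries and the same list as the members, so their openness is not a separate measurement of these genes. Transcription was not measured in these files.

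Fixed gene lists were set against the territory that belongs to their genes. Transcription factors of myeloid cells were the nearest genes of 21 members (2.55%, Wilson interval 1.67 to 3.86) and of 0.785% of the territory. Among the 29 such genes with territory, 10 had a member. The Wilson intervals of the lists treat members as independent, although several can lie at 1 gene, so they understate the uncertainty. Maf, a factor of macrophages, had 5 members with fold enrichments of 2.19 to 3.88, Id2 had 4, Jun 3 and Runx1 2. Chemokines, cytokines and their receptors took 9 members (1.09%) and 0.361% of the territory, through 6 of 25 genes. They included Tgfb2 with 3 members of fold enrichment 3.21 to 3.52, Cxcr4 with 2 members, and Il12b and Kitl with 1 each. Kinases and other parts of leukocyte signalling took 3 members (0.364%, 0.124 to 1.06) beside 0.312% of the territory, at Ptprc, Fyn and Pde4d. The member 482 kb from Ptprc, which encodes the leukocyte phosphatase CD45, had a fold enrichment of 5.02.

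Lists of other lineages held a smaller share of the members than of the territory. Counted by gene, most of them were not below the share of all genes. Synaptic and neuronal adhesion genes took 14 members (1.70%) and 4.59% of the territory, and 8 of the 14 were at Adgrl2. The list of cadherins and protocadherins took 6 members (0.728%) and 4.50%, 4 of them at Cdh4. Cdh26, itself a cadherin gene with 12 members, was not on that list, so its share does not stand for the whole family. Ion channel genes took 5 members (0.607%) and 2.17%. Developmental transcription factors took 24 members (2.91%, Wilson interval 1.965 to 4.30) and 3.22%, a difference within the interval, with 5 members at Zic4, 4 at Id2 and 3 each at Gata6 and Tbx3. Id2 is on both this list and the myeloid list, and its 4 members are counted in each. A member was nearest to 6 of 49 neuronal adhesion genes with territory (12.2%), 3 of 27 cadherins (11.1%) and 12 of 89 developmental factors (13.5%). It was 4 of 54 for channels (7.41%), beside 8.29% of all genes with territory. Since members were denser near genes, the lists were also compared over 50 to 200 kb alone, where 649 members lay. The order was kept for myeloid transcription factors (2.31% of members, 0.595% of territory), cytokines (1.23% and 0.611%), neuronal adhesion (1.08% and 2.05%), cadherins (0.154% and 1.15%), channels (0.154% and 1.496%) and developmental factors (2.31% and 2.65%). For neuronal adhesion the interval of the members in that band, 0.523 to 2.21%, included the territory, as it did for developmental factors. In that band the leukocyte signalling list stood at 0.308% and 0.355%, the reverse of its order over all distances.

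The base composition of the members differed from that of the whole territory beyond 50 kb. Member windows had a median GC content of 46.8% (quartiles 42.3 and 50.7), against 39.3% (34.8 and 44.8) in the 4190086 windows that tile the territory. The class within 50 kb had 48.3% and the 229 left-out peaks also 48.3%. Members had a median of 2 CpG dinucleotides per window and the territory 1. No CpG was found in 20.5% of members and 37.4% of territory windows, and 5 or more in 10.3% and 3.70%. The most CpG-rich member held 22, in a window of 69.7% GC nearest to Gm31371, with 97.9 tags over 42.4. Bases marked as repeats in the assembly made up a median of 11.4% of a member window and 27.4% of a territory window. Windows more than 50% repeat were 11.4% of members and 34.4% of the territory. Whether open sites that did not change with treatment have a like composition was not tested, since the lists hold only changed sites.

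**Figure D4:**
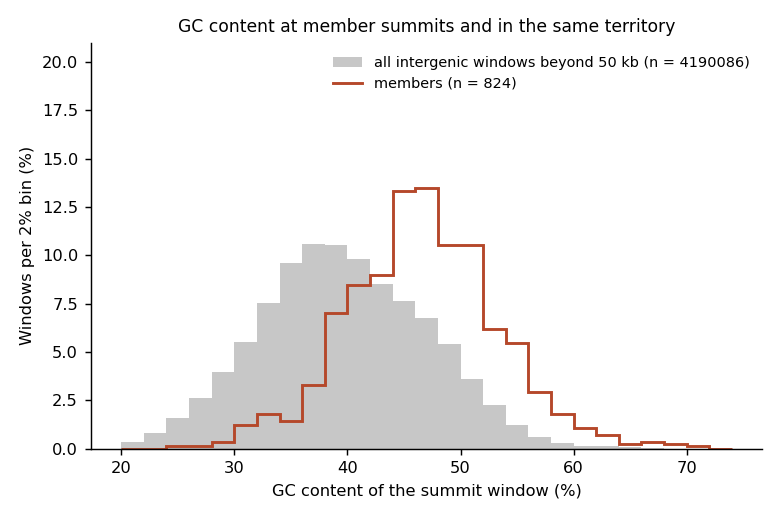
GC content (x axis, %) of the windows, as the percent of windows in each 2% bin (y axis), for the 824 member summits (line) and all 4190086 intergenic windows beyond 50 kb (grey). The members center near 46.8% and the territory near 39.3%, with wide overlap.

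The 206 members with the lowest p-values, 1 in 4 of all, had a median of 63.8 tags over 15.8 and a GC content of 45.0%. The 209 with the highest p-values had 29.7 tags over 12 and 49.3%. Their median widths were 228 and 356 bp, and both had a median of 2 CpG. The former lay in narrower intervals and were less GC-rich than the latter, while both exceeded the territory in GC. Width belongs to the interval, so each summit of a shared interval is counted with its full width.

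Consensus sequences of transcription factors were searched within 100 bp of each summit. Of the 23 patterns, 6 had a Wilson interval wholly above the share of territory windows, 3 wholly below and 14 that included it, and 422 members (51.2%) held none. The intervals treat summits as independent, although 210 members share an interval with another summit, and 1 of the 6 patterns had a single match. The E-box CAGCTG was found in 83 members (10.1%, 8.20 to 12.3) and 5.88% of territory windows, and the E-box CACGTG, a site of MYC and MAX and of MITF, in 24 (2.91%) and 1.497%. The PU.1 consensus GAGGAAGT was in 17 members (2.06%, 1.29 to 3.28) and 1.15% of the territory. Runs of at least 8 CA dinucleotides were in 33 (4.00%) and 2.21%, and the GC box GGGGCGGG, a site of SP1, in 9 (1.09%) and 0.241%. The 1 NRF1 match (0.121% and 0.0195%) gave the highest ratio, on a single member. In the class within 50 kb, CAGCTG was at 12.99%, CACGTG and PU.1 each at 2.70%, CA runs at 3.95% and the GC box at 1.14%. In the 229 left-out peaks, CAGCTG was at 12.7%, CACGTG at 3.93%, CA runs at 4.80% and the GC box at 1.75%. PU.1 was lower there, at 0.437%, which is 1 peak. Apart from PU.1 and the single NRF1 match, the excess was thus not particular to the members. Below the territory were the SOX consensus ACAATGG (2.67% and 4.02%), the homeobox consensus TAATTA (4.49% and 8.36%) and the POU consensus ATGCAAAT (0.971% and 2.16%).

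The other myeloid patterns were found about as often in members as in the territory, with each territory share inside the Wilson interval of the members. The AP-1 consensus TGACTCA was in 27 members (3.28%) and 2.88% of windows, C/EBP (TTGCNNAA) in 91 (11.04%) and 10.4%, IRF (GAAANNGAA) in 74 (8.98%) and 8.84%, RUNX (TGTGGTTT) in 20 (2.43%) and 1.97%, and NF-kB (GGANTTTCC) in 5 (0.607%) and 0.587%. AP-1 was more common among the lost sites beyond 50 kb, with 11 of 48 (22.9%, 13.3 to 36.5) for MS-275 and 9 of 42 (21.4%) for CXD101, against 2.26 to 4.73% as the interval of the members. The lists of lost sites share the vehicle libraries. It was at 4.16% in the class within 50 kb and 2.62% in the 229 left-out peaks. The CRE (TGACGTCA) and the REST pattern (GGACAGCGC) were in no member. A count of 0 of 824 allows a share of up to 0.364% by 3 counts, or 0.464% as the upper Wilson bound, both of which cover the 0.0808% and 0.0144% found in the territory.

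These ratios moved with base composition. Among the 469 members and 1338785 territory windows of 42 to 52% GC, a comparison added after the data were seen, RUNX stood at 3.41% of members (2.11 to 5.47) and 1.27% of windows. PU.1 was at 2.56% (1.47 to 4.42) and 1.49%, inside its interval, IRF at 8.53% (6.33 to 11.4) and 6.005%, and C/EBP at 11.5% (8.93 to 14.7) and 8.65%. In the same band the E-box CAGCTG was at 10.2% and 9.23%, AP-1 at 3.84% and 3.42%, and the homeobox pattern at 4.05% (2.61 to 6.24) and 3.57%. The homeobox share was thus no longer below the territory, which lay inside its interval. The E-box CACGTG, at 2.99% (1.79 to 4.95) and 1.955%, and the POU pattern, at 1.07% (0.456 to 2.47) and 1.72%, also had the territory inside their intervals. In all, 6 patterns were wholly above the territory in this band (RUNX, IRF, C/EBP, the GC box, CA runs and the single NRF1 match) and SOX wholly below. NF-kB had no match there. A match is a description of the letters and not of bound factor, and exact short strings miss many real sites.

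**Figure D5:**
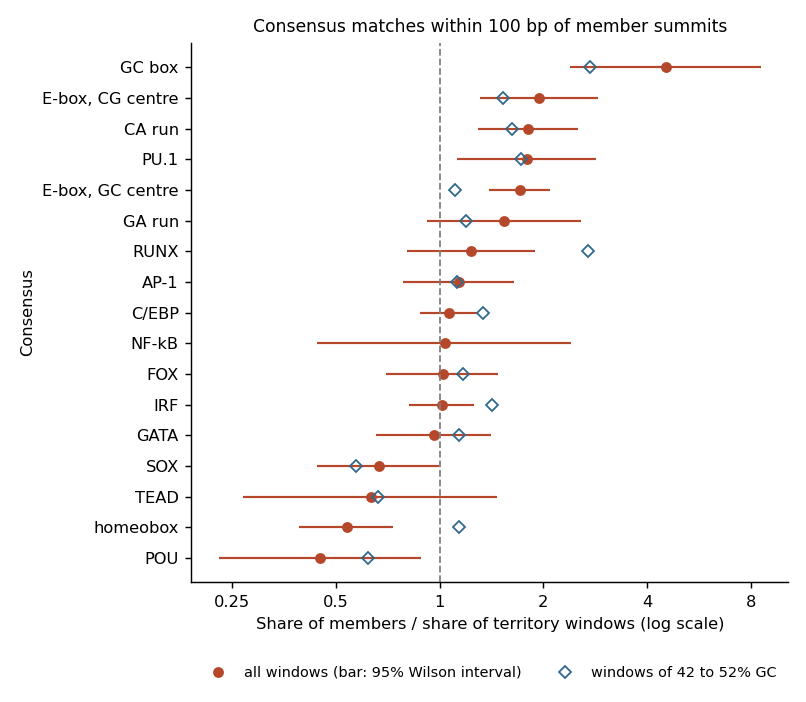
Share of members with a consensus match divided by the share of territory windows (x axis, log scale) for the patterns found in at least 5 members; filled points with 95% Wilson intervals (counting error only) use all windows, and open diamonds only windows of 42 to 52% GC. RUNX moves from 1.24 to 2.69 and the homeobox pattern from 0.537 to 1.14, while PU.1 is at 1.79 and 1.72. In the band the intervals of the homeobox pattern and of PU.1 include 1. NF-kB has no diamond because it had no match in that band.

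All words of 6 letters present in at least 20 members were also ranked, which gave 1598 words. The highest ratios of member to territory share were for CCGCAC (4.18), CGCCCC (3.98), CGCTGC (3.52), ACGGGC (3.51) and GCCGCC (3.34). Each of the 50 words with the highest ratios contained CG, as 127 of the 1598 did. The lowest ratio, 0.278, was for TATATA.

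The surroundings of the members were compared with the CXD101 lists. Over the whole MS-275 gained list, 358 of 8480 peaks (4.22%) overlapped a CXD101 gained peak and 1475 (17.4%) a peak of MS-275 over CXD101, with 82 in both. The selection thus left out more sites that were higher with MS-275 than with CXD101 than sites gained with both. The CXD101 gained list held 284 peaks. For both inhibitors the paper reports many more peaks against vehicle than the lists used here hold, so the members depend on these lists. A member is thus a site that did not reach the threshold with CXD101, which does not show that CXD101 left it unchanged. By the same rule no member was called higher with MS-275 than with CXD101, so the lists do not tell the inhibitors apart at any member. Although members overlapped none of them by rule, 124 (15.05%) had a CXD101 gained peak within 100 kb and 256 (31.1%) a peak of MS-275 over CXD101. An MS-275 lost peak was within 100 kb of 25 (3.03%), and another MS-275 gained peak of any class within 100 kb of 619 (75.1%). MS-275 and CXD101 lists share the vehicle libraries, so these distances do not come from independent controls.

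The lists hold only sites that changed, so the labelled cell type could not be checked by its level of open chromatin. Markers of monocytic cells (3 of 6: Fcgr1, Itgam and Ly6c2) and of neutrophils (3 of 6: Cxcr2, Ly6g and S100a9, of which Ly6g encodes the antigen that the gate excludes) had an MS-275 gained peak in the gene or 5 kb upstream, as did 1 marker each of macrophages, T cells, B cells, NK cells and hepatocytes. Over all protein-coding genes the share with such a peak was 11.6% (2548 of 21911). No marker had a lost peak with either inhibitor. The lost lists held only 691 peaks for MS-275 and 693 for CXD101, and the share of all genes with a lost peak is not given here. The only listed marker that was nearest to a member was the macrophage receptor gene Marco, 55.1 kb away, with 52.5 tags and a fold enrichment of 4.11. Of the 5090 protein-coding genes with territory beyond 50 kb, 422 (8.29%) were nearest to a member. How many of the markers have such territory is not given here. The counts of lost peaks and of nearest genes are thus not results about the markers. The 3 of 6 monocytic and 3 of 6 neutrophil markers with a gained peak are above the share of all genes. Each list has only 6 genes, and both stand alike. The part of a changed mix of cells in the members was not tested.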

How the data were processed

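M-MDSC ATAC-seq libraries (6 in 3 groups of 2) were analysed as 6 deposited peak lists. Per the labels, the authors aligned reads to mm10 with Bowtie2 and called peaks with MACS2 2.2.7.1, each list on the pooled libraries of 1 group against another. Fold enrichment is the ratio of pileups deposited by the authors, significance was deposited as −log10 p-values and q-values, and the deposited summit offset is a whole number of bases. No peak had a q-value above 0.05, while the methods state a threshold on p. Depth per library is unknown. Tags were recovered from the fold enrichment and p-value with a pseudocount of 1. All 8480 peaks were solved, 18 with a second solution. Genes came from GENCODE M21 and sequence from the RefSeq copy of the same assembly, GRCm38.p6, in which lower case marks repeats. Shares have 95% Wilson intervals, which cover counting error only. Recovery, counting and scanning were tested on simulated data. Named items followed a fixed rule (12 lowest p-values, 5 farthest, 5 groups, 20 genes, 4 genes a list). The members and lists were chosen with earlier results of these data known. Alternatives were other thresholds, start sites, windows and distances. Python 3.11.15, numpy 2.4.6, pandas 2.3.3 and scipy 1.17.1 were used.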

Additional observations from a re-analysis of the deposited data

How the results depend on the processing

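Without values per library, no replicate could be left out in turn, and the differences have no replicate check. No paired analysis was possible because each list was called on the pooled libraries of a group, so no value belongs to a single replicate. The number of members was 824. It was 455 beyond 100 kb and 450 with a fold enrichment of at least 3, and between 714 and 1191 under the other 5 alternatives. The share with another member nearby was 57.0% within 50 kb and 65.2% within 250 kb, beside 60.7% within 100 kb. The ratio of the homeobox share was 0.537 over all windows and 1.14 in windows of 42 to 52% GC, an alternative added after the data were seen. In that band the territory share lay inside the interval of the members. All shares of matches above 0 were lower in windows of 50 bp on either side of the summit, which are shorter, but not by a like factor. The E-box CACGTG fell from 2.91% to 0.728%, PU.1 from 2.06% to 0.728% and the GC box from 1.09% to 0.364%. AP-1 fell from 3.28% to 1.58%, IRF from 8.98% to 5.22% and GATA from 3.03% to 2.06%. Territory shares for the shorter windows are not given here, so the part of window length in these falls was not tested. The median share of repeat bases was 0% in those windows. The median GC content stayed between 46.3% and 46.8% over 4 alternatives, and the share with a gained promoter at the nearest gene was 23.4% with a promoter of 1 kb on either side. A pseudocount of 0 solved 35 of 8480 peaks and gave no usable value.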

Other observations

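The members were spread unevenly over the chromosomes. Per 100 Mb of territory, chr2 had the most members, 199, followed by chr13 with 156 and chr7 with 142, and the median chromosome had 106. The fewest were on chr16 (37.9), chr15 (36.1) and chrX (19.5). As a share of all MS-275 gained peaks of the chromosome, members were 11.8% on chr2, 3.46% on chr15 and 11.1% on chrX. Of the 5 groups with the most members, 2 lay on chr2.

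Annotated noncoding genes, pseudogenes among them, started within 50 kb of 536 members (65.0%), and 324 such genes were the nearest of their kind. Gm43674 was nearest to 14 members, 2.61 to 49.0 kb away, with fold enrichments of 1.74 to 4.68. Gm17619 had 7 and Gm22418 6, and 7 other such genes had 5 each. The names were chosen after the counts were seen.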
